A study of Mus musculus with 16 samples.

Results

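The comparison described here is the effect of complete Freund's adjuvant (CFA) on lumbar dorsal root ganglia as an average over 2 genotypes. It uses all 16 libraries of the series: 8 from CFA-injected mice and 8 from vehicle-injected mice, chosen by sample title, with genotype held in the model. CFA is an oil suspension of killed mycobacteria that provokes a long-lasting inflammation of the joint into which it is placed. The 4 groups were C57BL/6 wild-type (WT) mice given vehicle (titled saline), WT mice given CFA, TrkA/C knock-in (KI) mice given vehicle and KI mice given CFA, with 4 libraries each. All mice were 10 to 12 weeks old, all were injected into the ankle, and the ganglia of the injected side at L4 to L6 were taken 14 days later. Each library pooled 6 ganglia from 2 mice, so a library is a pair of animals and not a single one. The labels give the name of the knock-in allele and not its design, and every KI library carries it in both injection groups.

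Dorsal root ganglia hold the cell bodies of the sensory neurons that serve skin, muscle and joints, wrapped by satellite glia, with Schwann cells along their axons and a fibrous sheath around the whole. Joint inflammation is known to sensitise nociceptors through cytokines, prostaglandins and neurotrophins, and macrophages, interferon signals and injury genes in the ganglion are commonly examined in such models. The transferrin receptor, the gene with the smallest p here, carries iron-loaded transferrin into cells, and its mRNA is stabilised by iron regulatory proteins when iron in the cell is low.

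Library totals ran from 22742209 to 37576008 counts with vehicle and from 28490746 to 40910947 with CFA. The libraries had the profile of sensory ganglia: Avil, which encodes an actin-binding protein of sensory neurons, had a mean of 1096 CPM and Prph, the neurofilament peripherin, 1990 (CPM are counts scaled to library size with TMM factors). The genotype tag of WT CFA 1 reads knock-in although its title says WT. Its Ntrk3 level, the transcript of TrkC, was 48.4 CPM, among the WT libraries (29.3 to 61.4) and away from the KI libraries (99.1 to 138). It was kept as WT, by its title. Libraries also stood apart in transcripts of other tissues. Skeletal muscle genes were high in KI vehicle 1 and 4, neutrophil and erythroid genes in KI CFA 3, and interferon-stimulated genes in WT CFA 2. In whole ganglia, fewer cells of a type and less RNA per cell cannot be told apart.

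Of 15507 genes tested, 4 rose with CFA over both genotypes at an edgeR adjusted p under 0.05, and none fell. That is 0.0258% of the genes tested. Fits by DESeq2 and limma-voom called 57 and 7 genes, with all 4 among them. At an unadjusted p under 0.05, 1019 genes (6.57%) differed, 474 higher and 545 lower with CFA. The 4 genes were Tfrc, Sbno2, Rasa4 and Ptpn9, and their rises were small, between 1.16-fold and 1.29-fold.

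Tfrc encodes the transferrin receptor (Entrez 22042, build mm10/GRCm38, chromosome 16, 32608896 to 32632794). In WT ganglia it had 100.1, 97.8, 112.2 and 109.4 CPM with vehicle and 115.8, 136.8, 142.5 and 157.7 with CFA. In KI ganglia it had 94.5, 109.4, 107.5 and 111.2 CPM with vehicle and 124, 144, 139 and 126.4 with CFA. Every CFA library of either genotype lay above every vehicle library. The log2 fold change was 0.37 ± 0.06 (SE; edgeR adjusted p = 0.0338), with 0.40 ± 0.08 in WT and 0.34 ± 0.08 in KI, and the difference between genotypes had an unadjusted p of 0.595.

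The element through which iron acts on Tfrc mRNA is shown because Tfrc is the called gene of the iron list. Sites are given for Tfrc, Fth1, Ftl1 and Slc40a1 alone, and not for the other iron genes read below. An iron-responsive element is a hairpin with an unpaired C, a stem of 5 base pairs and the loop CAGTGN. The pattern, searched on the transcript strand of GENCODE M21 (GRCm38) with G-T pairs allowed in the stem, was found in 294 of 21877 protein-coding genes (1.34%), and in 1 gene, Tfrc, at least 4 times. The 4 matches of Tfrc lie in its 3′ UTR on the plus strand of chromosome 16. Such elements there protect the mRNA from decay when iron regulatory proteins bind them. Elements of another form were not searched. The matches of Fth1 and Ftl1, the ferritin chains that store iron, and of Slc40a1, the iron exporter ferroportin, lie in the 5′ UTR, where such elements act on translation. Capitals mark the loop.
Tfrc, chr16:32631225-32631241: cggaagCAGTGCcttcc
Tfrc, chr16:32631604-32631620: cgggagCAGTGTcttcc
Tfrc, chr16:32631669-32631685: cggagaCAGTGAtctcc
Tfrc, chr16:32631716-32631732: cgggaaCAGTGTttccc
Fth1, chr19:9982738-9982754: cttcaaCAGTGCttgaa
Ftl1, chr7:45459785-45459801: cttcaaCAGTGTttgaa
Slc40a1, chr1:45925471-45925487: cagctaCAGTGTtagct

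The 3 genes shown above with the element in the 5′ UTR had mean CFA differences close to 0. Fth1 had a log2 fold change of 0.00 ± 0.05, Ftl1 −0.02 ± 0.04 and Slc40a1 0.06 ± 0.19. None passed the test (unadjusted p = 0.989, 0.716 and 0.774). Elements at that place act on translation, which mRNA counts do not measure. The part of iron in the rise of Tfrc was not tested. Of the 17 iron-handling genes tested, 3 were higher and 3 lower at an unadjusted p under 0.05, with the called Tfrc among the higher ones. These shares are to be read against 3.06% and 3.51% of all genes. The list's median log2 fold change was 0.00, as over all genes. Hmox1, which encodes the haem-degrading enzyme haem oxygenase 1, had 0.16 ± 0.05 and Slc11a2, the divalent metal transporter, 0.15 ± 0.06. Trf, which encodes transferrin itself, had −0.37 ± 0.11 and Cp, the ferroxidase caeruloplasmin, −0.29 ± 0.10. Hfe2, which encodes the BMP co-receptor hemojuvelin and is expressed in skeletal muscle, had −3.95 ± 1.2. It stood at 5.64 and 3.89 CPM in KI vehicle 1 and 4 and at or below 0.58 in the other 14 libraries, and those 2 libraries also had the highest skeletal muscle scores.

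Sbno2 encodes a transcriptional co-regulator that is induced by STAT3-activating cytokines (Entrez 216161, chromosome 10, 80056992 to 80106108). In WT it had 48.3, 49.4, 51.5 and 48.2 CPM with vehicle and 63.5, 61.6, 59.7 and 57.4 with CFA. KI libraries had 52.8, 48.5, 52.3 and 52.3 CPM with vehicle and 57.6, 55.1, 57.0 and 56.3 with CFA. Again no CFA library reached down to a vehicle library, and the spread within each group was a few CPM. The log2 fold change was 0.22 ± 0.03 (edgeR adjusted p = 0.0338). It was 0.29 ± 0.05 in WT and 0.14 ± 0.05 in KI, a difference with an unadjusted p of 0.0310 and an edgeR adjusted p of 0.718.

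Rasa4 encodes CAPRI, a calcium-triggered GTPase-activating protein that switches Ras off (Entrez 54153, chromosome 5, 136083916 to 136111860). Its WT libraries had 22.9, 26.6, 24.1 and 22.0 CPM with vehicle and 25.5, 30.8, 33.5 and 28.7 with CFA. Its KI libraries had 26.8, 26.5, 27.9 and 27.0 CPM with vehicle and 36.2, 36.5, 35.9 and 32.8 with CFA. The KI groups did not overlap, whereas in WT the lowest CFA library lay below the highest vehicle library. The log2 fold change was 0.35 ± 0.06 (edgeR adjusted p = 0.0338).

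Ptpn9 encodes PTP-MEG2, a tyrosine phosphatase that sits on secretory vesicles (Entrez 56294, chromosome 9, 56994968 to 57062808). With vehicle, WT libraries had 107.7, 111.2, 102.8 and 114.7 CPM and KI libraries 112.9, 105.8, 109.4 and 111.4. With CFA, WT libraries had 125.9, 128.3, 142.1 and 127.3 CPM and KI libraries 118.5, 121.3, 127.6 and 124.9. All 8 CFA libraries lay above all 8 vehicle libraries. The log2 fold change was 0.21 ± 0.04 (edgeR adjusted p = 0.0433).

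**Figure D1:**
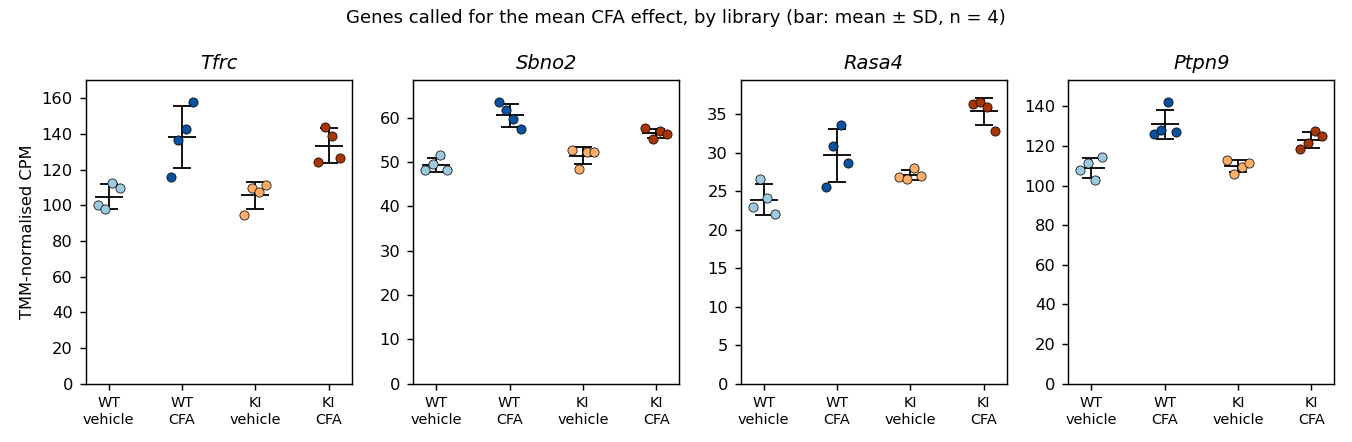
TMM-normalised CPM (y axis, from 0) of the 4 genes called for the mean CFA effect in each library (points), by group on the x axis. Bars are the mean ± SD of 4 libraries. For Tfrc, Sbno2 and Ptpn9 every CFA point lies above every vehicle point, and for Rasa4 the WT groups overlap.

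When 1 library was left out, the sizes of these rises changed less than their calls. The 4 genes were chosen by p in these same libraries, so the ranges are not an independent check of the sizes. Over the 16 fits that each left out 1 library, the log2 fold change of Tfrc ran from 0.33 to 0.41, of Rasa4 from 0.31 to 0.38, of Sbno2 from 0.20 to 0.23 and of Ptpn9 from 0.19 to 0.23. The edgeR adjusted p of Tfrc ran from 0.00495 to 0.111 over the same fits. No gene was called without any one of WT vehicle 1 or 3, WT CFA 2, 3 or 4, KI vehicle 1, 3 or 4, or KI CFA 2, 3 or 4. Without WT vehicle 2 the call of Rasa4 alone was kept, without WT CFA 1 those of Tfrc and Rasa4, and without WT vehicle 4, KI vehicle 2 or KI CFA 1 all 4 were kept among 5, 39 and 7 calls. Without KI vehicle 1 and 4 together, the fit had no call, and Tfrc had 0.35 (edgeR adjusted p = 0.280). With the score of the fibroblast and meninges list as a covariate, chosen after the data were seen, no gene was called either, and Tfrc had 0.32 (0.395) and Sbno2 0.24 (0.154).

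The 250 bases before a transcription start of each of these 4 genes, from RefSeq GRCm38.p6, are shown because these are the called genes. The genes share no more than their rise with CFA here. Capitals mark matches of GGGCGG, the GC box bound by Sp1, or of TTCNNNGAA, the palindrome bound by STAT factors, on either strand. ACGTG, the core shared by hypoxia response elements and E-boxes, was also searched on both strands and was not in these windows. Overlapping GC boxes are marked as 1 run.
Tfrc, chr16:32608646-32608895, plus strand: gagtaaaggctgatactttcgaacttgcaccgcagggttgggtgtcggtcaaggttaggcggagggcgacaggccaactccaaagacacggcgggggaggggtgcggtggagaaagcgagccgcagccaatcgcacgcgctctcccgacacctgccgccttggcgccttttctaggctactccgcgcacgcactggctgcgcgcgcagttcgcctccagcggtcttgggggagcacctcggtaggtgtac
Sbno2, chr10:80102703-80102952, minus strand: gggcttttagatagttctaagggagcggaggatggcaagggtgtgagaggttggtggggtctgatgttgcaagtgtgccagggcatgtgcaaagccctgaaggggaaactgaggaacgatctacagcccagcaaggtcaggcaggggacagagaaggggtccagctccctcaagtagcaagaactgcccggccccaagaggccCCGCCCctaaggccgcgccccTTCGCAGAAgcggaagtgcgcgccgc
Rasa4, chr5:136083666-136083915, plus strand: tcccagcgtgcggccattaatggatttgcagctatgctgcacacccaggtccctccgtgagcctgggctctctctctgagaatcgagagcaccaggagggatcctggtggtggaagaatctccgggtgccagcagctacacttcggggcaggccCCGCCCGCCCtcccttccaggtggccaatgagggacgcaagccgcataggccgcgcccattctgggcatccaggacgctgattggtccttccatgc
Ptpn9, chr9:56994718-56994967, plus strand: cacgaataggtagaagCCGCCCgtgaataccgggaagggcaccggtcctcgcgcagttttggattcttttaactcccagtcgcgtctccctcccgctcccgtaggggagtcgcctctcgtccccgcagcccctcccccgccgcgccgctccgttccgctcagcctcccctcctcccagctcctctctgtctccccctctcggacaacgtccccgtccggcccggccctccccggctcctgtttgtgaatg

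A GC box was present in the windows of Sbno2, Rasa4 and Ptpn9 and in 32.7% of 32851 windows of the same length in the table. The STAT palindrome was present once, in Sbno2, and in 7.02% of all windows, and ACGTG in 16.6%. The 4 windows held 61.6% to 67.6% G and C, against a median of 52.4% over the table. Sbno2 has 3 start sites and Tfrc 2 in the table, and 1 of each is shown. The Sbno2 window lies inside the gene interval given above, so its start is not the outermost of that interval. The windows of Tfrc, Rasa4 and Ptpn9 end directly before their gene intervals.

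No further gene was called. By the rule for named genes, the 24 smallest p-values with a mean of at least 1 CPM are described, and the other 20 of them had edgeR adjusted p-values from 0.0571 to 0.213. Of these 20, 12 were higher and 8 lower with CFA, as the plot of WT and KI fold changes shows for those reported here, and 5 of the 8 were skeletal muscle genes.

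**Figure D2:**
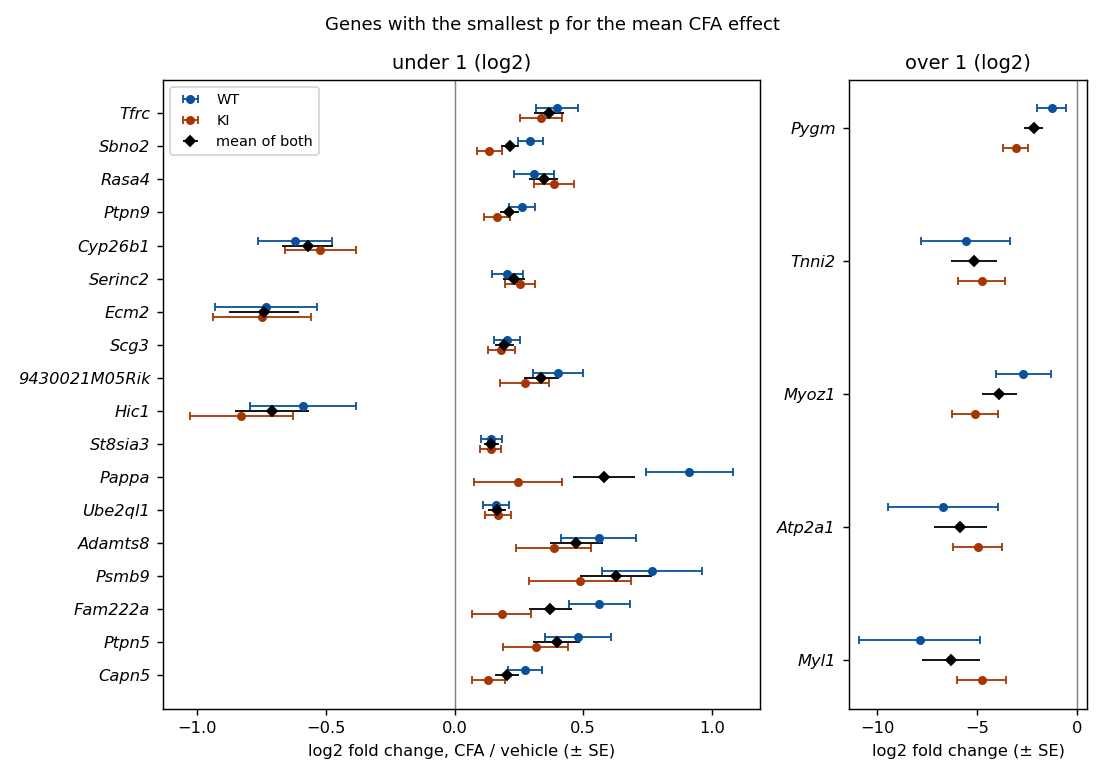
Log2 fold change of CFA over vehicle (x axis, points with ± SE) for genes with the smallest p, given for each genotype and for their mean, with genes of a difference over 1 in a panel of their own scale. The WT and KI points lie on the same side of 0 for every gene shown, and the 5 genes of the right panel are muscle genes.

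Among neuronal genes of this group, Scg3 encodes secretogranin III, a protein of dense-core vesicles. With vehicle it had 932.7, 934.8, 1034 and 954.7 CPM in WT and 1190, 1053, 1141 and 1074 in KI. With CFA it had 1033, 1109, 1175 and 1123 CPM in WT and 1220, 1298, 1275 and 1264 in KI. The KI groups were apart and the WT groups met at 1033 and 1034, with a log2 fold change of 0.19 ± 0.04 (edgeR adjusted p = 0.101). St8sia3, a sialyltransferase of neurons, had 0.14 ± 0.03 and Ube2ql1, an E2 ubiquitin-conjugating enzyme, 0.16 ± 0.04 (edgeR adjusted p = 0.157 and 0.213). Both had CFA and vehicle libraries apart in each genotype. Ptpn5, the neuronal phosphatase STEP, had 0.40 ± 0.09 and Capn5, a calpain protease, 0.20 ± 0.05.

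Serinc2, a member of the serine incorporator family, had 43.1, 43.0, 39.1 and 45.9 CPM with CFA in WT against 37.0, 37.9, 35.1 and 38.5 with vehicle. Its KI values were 48.0, 50.4, 47.7 and 50.5 CPM with CFA against 43.2, 37.8, 43.3 and 40.6. The groups did not overlap in either genotype (0.23 ± 0.04, edgeR adjusted p = 0.0876). Pappa, a metalloprotease that releases insulin-like growth factors from their binding proteins, was less even. WT libraries had 16.4, 17.5, 18.7 and 20.8 CPM with vehicle and 28.3, 38.9, 43.9 and 26.9 with CFA, while KI libraries had 13.4, 18.7, 13.7 and 14.7 with vehicle and 14.2, 18.1, 24.1 and 15.4 with CFA. WT groups were apart and KI groups overlapped: the log2 fold change was 0.91 ± 0.17 in WT and 0.25 ± 0.17 in KI, a difference with an unadjusted p of 0.0124 (edgeR adjusted p = 0.718). Adamts8, another metalloprotease, had 0.47 ± 0.10 over both.

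Non-overlap of libraries was also counted, without a model. CFA and vehicle libraries were apart in both genotypes and in the same direction for 22 genes, 0.142% of those tested, 19 higher (0.123%) and 3 lower (0.0193%). All 8 CFA libraries lay above all 8 vehicle libraries for 9 genes (0.058%) and below them for 1 (0.00645%). The 9 were Tfrc, Sbno2, Ptpn9, 9130204L05Rik, Slc44a2, Rhov, F2rl2, Itgb1 and Mark3, and the last 6 of these are named after their values were seen. F2rl2 encodes the thrombin receptor family member PAR3 of nociceptors (0.12 ± 0.03), Itgb1 the integrin beta 1 subunit (0.08 ± 0.03) and Slc44a2 a choline transporter-like protein (0.12 ± 0.03). Their edgeR adjusted p-values were 0.376, 0.477 and 0.312. The 1 gene with all CFA libraries below was Hpgds, the prostaglandin D synthase of immune cells. Its mean was 0.478 CPM with CFA and 0.851 with vehicle (−0.80 ± 0.23, edgeR adjusted p = 0.390), and it is likewise named after its values were seen. The 3 genes apart and lower in both genotypes were Hpgds, Cyp26b1 and Ecm2.

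Neuronal lists had medians near 0. The counts of list members at an unadjusted p under 0.05, here and below, are to be read against 3.06% of all genes higher and 3.51% lower. In the list of non-peptidergic nociceptor genes, 6 of 21 were higher at an unadjusted p under 0.05 and none lower, and the median log2 fold change was 0.06. None of the 6 passed the test over all genes. They were Osmr (the oncostatin M receptor, 0.16 ± 0.05), P2rx3 (the ATP-gated channel P2X3, 0.11 ± 0.03), Mrgprd (0.15 ± 0.05) and Mrgprx1 (0.22 ± 0.08), both Mas-related receptors, Lpar5 (a lysophosphatidic acid receptor, 0.16 ± 0.06) and Scn11a (the sodium channel Nav1.9, 0.13 ± 0.05). Mrgprd had 193.7, 186.2, 199.5 and 152 CPM with vehicle in WT against 209.1, 215.2, 201.4 and 203.8 with CFA, and in KI 231.3, 233.3, 232.6 and 237.7 against 243.7, 248.2, 274.8 and 247.4. The groups were apart in both genotypes by a few CPM in each (edgeR adjusted p = 0.457).

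Among 33 sensory transduction channels, 5 were higher and 1 lower at that threshold. Trpa1, the irritant receptor, had 0.22 ± 0.06, and Kcnk12, a two-pore potassium channel, 0.21 ± 0.06 with groups apart in both genotypes. Among 20 A-fibre genes, 4 were higher and none lower, namely the 3 neurofilaments Nefl (0.12 ± 0.04), Nefm (0.13 ± 0.06) and Nefh (0.15 ± 0.06), and Ret, the receptor of the GDNF family (0.11 ± 0.04). The medians of both lists were 0.02. Of 15 peptidergic nociceptor genes, 1 was higher and 1 lower. Calca, which encodes CGRP, had 0.00 ± 0.09.

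Of 19 neuropeptide and opioid genes, 4 were higher and none lower. Vgf, a secreted neurotrophin-induced precursor, had 150.6, 185, 169.8 and 206.2 CPM with vehicle in WT against 237.6, 233.7, 249.2 and 212.7 with CFA. KI values were 192.4, 146.8, 183.4 and 170.3 CPM against 173.4, 216.3, 190.8 and 189.2. The WT groups were apart and the KI groups overlapped (0.27 ± 0.07, edgeR adjusted p = 0.256). Npy, a peptide that sensory neurons make after nerve injury, stood at 12.9, 7.87, 2.28 and 2.25 CPM in WT with CFA and at or below 2.36 CPM in every other library. WT CFA 1 and 2 were thus the high libraries, and the log2 fold change was 1.96 ± 0.56 (edgeR adjusted p = 0.381). Bdnf, the neurotrophin, had 0.34 ± 0.11 and Oprl1, the nociceptin receptor, 0.23 ± 0.07.

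The injury and regeneration list held 6 higher and no lower members of 22 (median 0.12). They were Npy and Bdnf, already given, the transcription factors Sox11 (0.33 ± 0.10) and Jun (0.14 ± 0.07), the growth cone protein Basp1 (0.13 ± 0.04) and the stress gene Gadd45a (0.17 ± 0.07). None passed the test over all genes, with edgeR adjusted p-values from 0.381 to 0.733. Jun had 0.37 in WT and −0.08 in KI. The list median was 0.13 in WT and −0.01 in KI. The list score, its mean log2 CPM per library, was 5.397 and 5.348 in WT CFA 1 and 2. In WT CFA 3 and 4 it was 4.567 and 4.612, within the WT vehicle range of 4.389 to 4.969. KI CFA scores, from 4.337 to 4.635, lay within the KI vehicle range of 3.949 to 4.69.

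Retinoid and sheath transcripts were mostly lower with CFA, and none was called. Cyp26b1 encodes an enzyme that degrades retinoic acid. In WT it had 5.48, 5.85, 5.44 and 5.89 CPM with vehicle and 3.47, 3.59, 3.38 and 4.27 with CFA. In KI it had 7.40, 8.11, 8.77 and 8.36 CPM with vehicle and 6.75, 6.88, 4.52 and 4.65 with CFA. CFA libraries lay below vehicle libraries in both genotypes, and the log2 fold change was −0.57 ± 0.10 (edgeR adjusted p = 0.0571). DESeq2 (adjusted p = 0.000267) and limma-voom (0.0240) called it. Stra6, the retinol uptake receptor, had −0.74 ± 0.22, Rbp4, the retinol carrier, −1.02 ± 0.34, Dhrs3, a retinal reductase, −0.34 ± 0.10 and Rarb, a retinoic acid receptor and target, −0.36 ± 0.12. Crabp1, a retinoic acid-binding protein, had 0.34 ± 0.15. In all, 5 of 17 retinoid genes were lower and 1 higher at an unadjusted p under 0.05, with a list median of −0.11. The median was −0.31 in WT and −0.12 in KI, and −0.07 over both without KI vehicle 4.

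Ecm2, an extracellular matrix protein, had 5.69, 4.84, 6.83 and 7.11 CPM with vehicle in WT against 4.36, 3.62, 2.57 and 4.09 with CFA. The KI libraries had 7.88, 8.27, 7.37 and 10.99 CPM against 6.01, 3.57, 6.21 and 4.75. The groups were apart in both genotypes (−0.74 ± 0.14, edgeR adjusted p = 0.0876). Hic1, a transcriptional repressor of mesenchymal progenitors, had −0.71 ± 0.14 (0.157) with groups apart in KI and overlapping in WT. Both are transcripts of fibroblast-like cells.

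**Figure D3:**
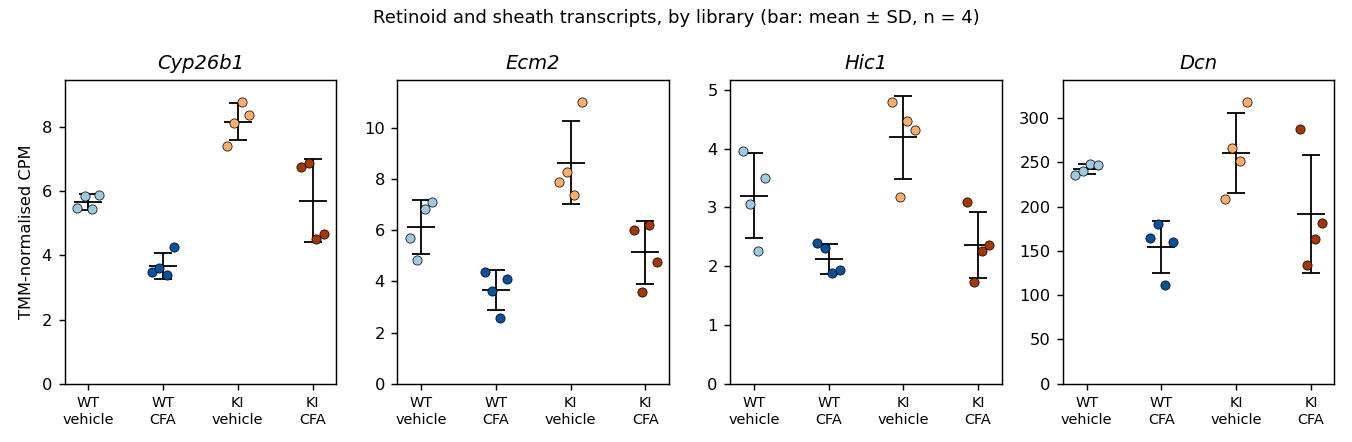
TMM-normalised CPM (y axis, from 0) of Cyp26b1, Ecm2, Hic1 and Dcn in each library (points), by group on the x axis, with bars at the mean ± SD of 4 libraries. CFA points of Cyp26b1 and Ecm2 lie below the vehicle points of their genotype, and for Dcn the library KI CFA 1, at 287 CPM, lies among the vehicle libraries.

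The fibroblast and meninges list had a median log2 fold change of −0.37, with −0.30 in WT and −0.30 in KI, against 0.00 over all genes. Of its 17 genes, 8 were lower and none higher at an unadjusted p under 0.05. Dcn, the collagen-binding proteoglycan decorin, had 235.4, 239.7, 247.8 and 246.7 CPM with vehicle in WT against 164.3, 180.8, 111.9 and 160.2 with CFA. In KI it had 208.1, 266.4, 251.2 and 317.8 CPM against 287.4, 134.1, 163.5 and 181.6. The WT groups were apart, and in KI 1 CFA library of 4 stood among the vehicle libraries (−0.55 ± 0.13, edgeR adjusted p = 0.215). Without KI CFA 1, Dcn was called (edgeR adjusted p = 0.0359). The others were Pdgfra, the growth factor receptor of fibroblasts (−0.44 ± 0.11), Igfbp6, an IGF-binding protein (−0.69 ± 0.20), the lipocalin Apod (−0.37 ± 0.10), the transcription factor Foxd1 (−0.67 ± 0.21), the proteoglycan Lum (−0.42 ± 0.16), the prostaglandin D synthase Ptgds (−0.94 ± 0.44) and the transporter Slc6a13 (−0.50 ± 0.22).

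The score of this list, its mean log2 CPM per library, ran from 4.22 to 5.15 with vehicle and from 3.22 to 4.82 with CFA. WT CFA 3 was the lowest and KI vehicle 4 the highest, and the ranges overlapped. Leaving out WT CFA 3 moved the list median to −0.31 and leaving out KI CFA 1 to −0.46. Of the 19 collagen genes none passed an unadjusted p under 0.05 in either direction (median −0.07). Of 18 complement genes, 3 were lower and none higher at that threshold. In the cytokine and chemokine list, 4 of 28 genes were lower and 1 higher at that threshold. The lower ones were the chemokines Ccl11 (−0.48 ± 0.16), Ccl2 (−0.47 ± 0.18) and Cx3cl1 (−0.22 ± 0.09) and the alarmin Il33 (−0.53 ± 0.18), and the higher one was the interferon-induced chemokine Cxcl10 (0.56 ± 0.25). The median of this list was −0.14, and −0.01 without WT vehicle 4. The part of the sheath score in the lower values was not tested.

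Interferon-stimulated genes had the highest list median of the immune and neuronal lists other than the neutrophil and erythroid ones, 0.30. The median was 0.66 in WT and −0.03 in KI. Of 42 genes, 18 were higher and none lower at an unadjusted p under 0.05, none of them called. Iigp1, an immunity-related GTPase, had 4.14, 19.4, 11.4 and 4.04 CPM in WT with CFA against 3.61, 2.59, 1.61 and 3.53 with vehicle. In KI it had 3.41, 2.56, 3.61 and 5.43 CPM with CFA against 3.13, 4.29, 2.63 and 4.90 with vehicle. WT CFA 2 and 3 were the high libraries and the KI groups overlapped (0.89 ± 0.29 over both, edgeR adjusted p = 0.502). Irf7, a transcription factor induced by interferon, had 1.16 in WT and 0.10 in KI.

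Per library, the interferon score reached 4.08 in WT CFA 2 and 3.31 in its group's replicate 3, against 2.59 to 3.03 in the other 14 libraries. Without WT CFA 2 the list median was 0.11. Of 22 MHC class I genes, 6 were higher and none lower (median 0.09, with 0.18 in WT and 0.02 in KI, and 0.06 over both without WT CFA 2). Tap1, the peptide transporter, had 7.64, 6.61, 6.96 and 7.26 CPM with vehicle in WT against 9.04, 20.7, 13.1 and 11.6 with CFA, and in KI 6.83, 8.51, 8.56 and 9.88 against 8.31, 9.32, 10.5 and 9.49. The WT groups were apart and the KI groups overlapped, with 0.93 ± 0.19 in WT, 0.16 ± 0.18 in KI and an unadjusted p of 0.00784 for the difference (edgeR adjusted p = 0.718). Psmb9, an immunoproteasome subunit, was the member of this list with groups apart in both genotypes. It had 3.15, 2.88, 2.26 and 1.98 CPM with vehicle in WT against 3.85, 6.01, 3.31 and 4.35 with CFA, and in KI 1.80, 2.23, 2.32 and 1.80 against 2.80, 2.82, 3.25 and 2.58. Its log2 fold change was 0.63 ± 0.14 (edgeR adjusted p = 0.213).

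**Figure D4:**
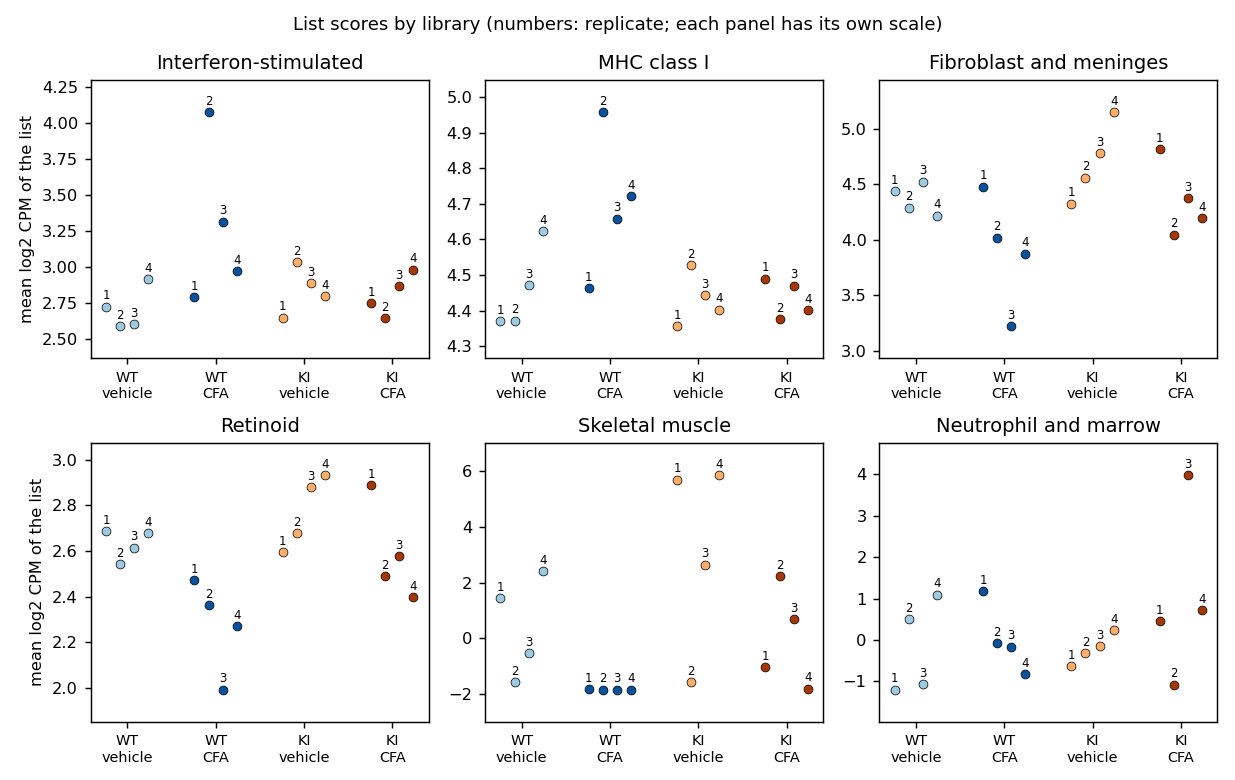
Score of 6 gene lists (y axis, mean log2 CPM of the list) in each library (points, numbered by replicate), by group on the x axis, with a scale of its own in each panel. WT CFA 2 stands high for interferon-stimulated genes at 4.08, KI vehicle 1 and 4 for skeletal muscle at 5.69 and 5.85, and KI CFA 3 for neutrophil and marrow genes at 3.98.

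Some lists with large medians held libraries that stood apart. Skeletal muscle scores were 5.69 and 5.85 in KI vehicle 1 and 4, 2.65 in KI vehicle 3, 2.40 in WT vehicle 4 and 2.22 in KI CFA 2, and 1.43 or less elsewhere. Skeletal muscle genes had a median of −4.21, with 17 of 18 lower at an unadjusted p under 0.05 and none called. Tnni2, a fast-muscle troponin, had 1.84, 0.19, 0.13 and 6.35 CPM in WT with vehicle and 0, 0.07, 0.07 and 0.03 with CFA. Among KI libraries the values were 54.1, 0.03, 9.35 and 43.0 CPM with vehicle and 0.10, 2.68, 1.17 and 0 with CFA. Levels thus ranged over 3 orders of magnitude within the vehicle group of KI, and the groups overlapped in KI and not in WT. Without KI vehicle 2, the vehicle library of KI with the lowest muscle score, 39 genes were called, 32 of them lower and muscle genes such as Acta1 and Ckm among them, and without KI vehicle 4 the list median was −3.61. Muscle lies beside the lumbar ganglia in dissection, and its part in these differences was not tested.

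Neutrophil and marrow genes had a median of 1.58, with −0.05 in WT and 2.81 in KI, and 7 of 12 were higher at an unadjusted p under 0.05. Ltf, the granule protein lactoferrin, had 39.0 CPM in KI CFA 3 and 4.93 or less in each of the other 15 libraries, and without that library the list median was 0.24. The erythroid list, of which 3 genes were tested, had a score of 3.77 in KI CFA 3 and at most 1.53 elsewhere, and its median of 0.63 was −0.20 without that library. The proliferation list had a median of 0.26 with 4 of 22 genes higher, of which the DNA topoisomerase Top2a (1.16 ± 0.31) had the smallest p and the cyclin Ccnb2 (1.26 ± 0.54) the largest difference, and 0.07 without KI CFA 3. Of the IL-6, STAT3 and acute-phase list, 6 of 25 were higher and 1 lower. Among them Bcl3, an NF-kB co-regulator (0.35 ± 0.11), and Serpina3i, a serpin of the acute phase (0.42 ± 0.13), had like differences in WT and KI. Hp, haptoglobin, had 0.41 in WT and 2.50 in KI. Over the fits that each left out 1 library, the mean difference of Hp ran from 0.57 to 1.62. The score of this list was 4.48 in KI CFA 3, with 3.95 the next of its group.

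The adipocyte list, with 5 genes tested, had a median of 0.44, with −0.24 in WT and 1.02 in KI, and 0.18 without WT CFA 4. Its scores overlapped between injections, from −1.28 to 1.02 with vehicle and from −1.89 to 1.21 with CFA, and the 1 gene at an unadjusted p under 0.05, the lipoprotein lipase gene Lpl, was lower (−0.46 ± 0.13). Of 24 macrophage genes none passed an unadjusted p under 0.05. Their median was −0.10, with −0.06 without KI CFA 2 and −0.17 without KI CFA 3. Csf1r, the receptor that keeps macrophages alive, had −0.28 ± 0.14. None of 23 Schwann cell and myelin genes passed (median −0.06), none of 17 satellite glia genes (−0.01), none of 24 cholesterol synthesis genes (0.03), none of 44 ribosomal protein genes (−0.05) and none of 32 nuclear oxidative phosphorylation genes (−0.04). In all, 48 lists with 883 distinct genes were read, and 1 of them held a called gene, the iron list through Tfrc.

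**Figure D5:**
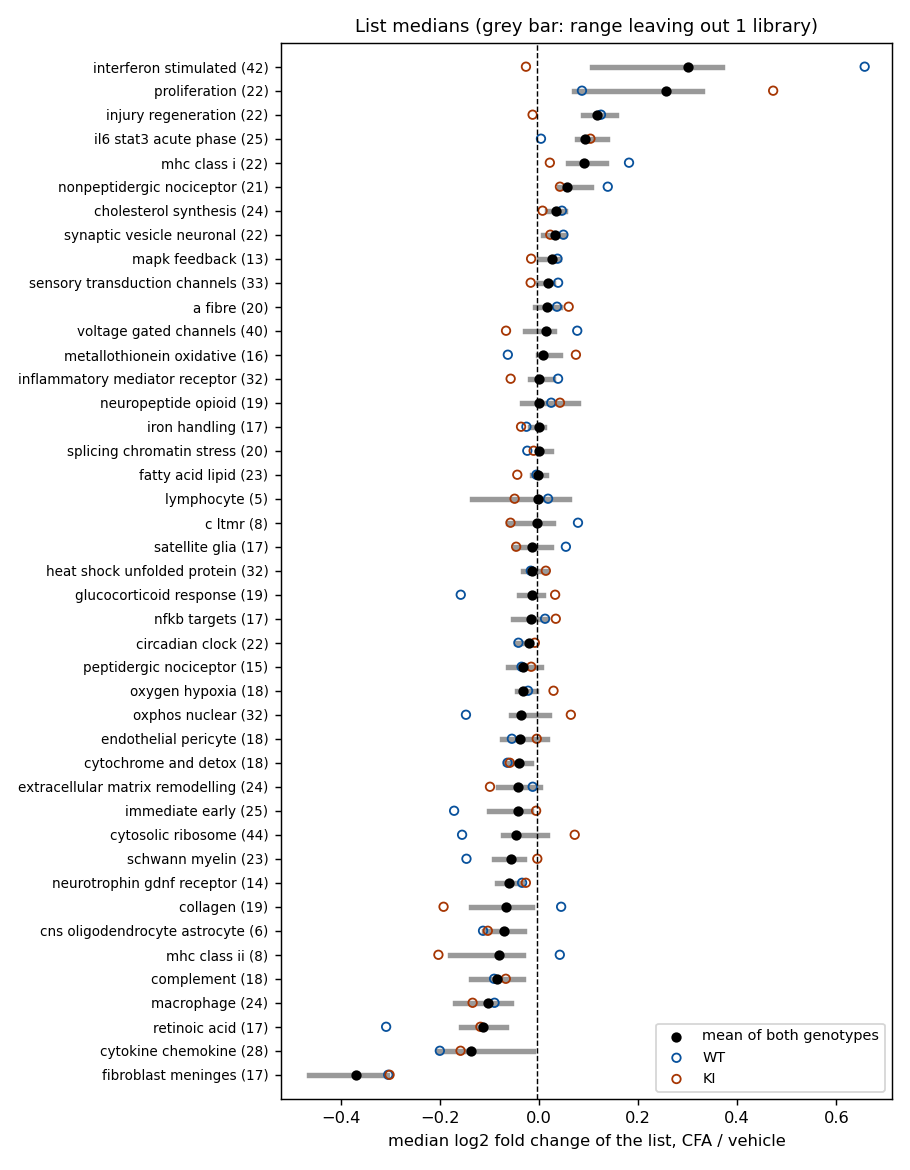
Median log2 fold change of CFA over vehicle (x axis) for each gene list (rows, with the number of genes tested), for the mean of both genotypes and for each genotype, with grey bars for the range when each library was left out in turn. The skeletal muscle, neutrophil, erythroid, adipocyte and androgen lists are left out, the dashed line is the median of all genes, and the fibroblast list lies lowest at −0.37.

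The shared effect can also be read from the genotypes separately, since WT and KI libraries have no sample in common. The contrast of each genotype was first taken from the fit of all 16 libraries, which share 1 estimate of the spread. For WT edgeR called 0 genes (1079, or 6.96%, at an unadjusted p under 0.05, with 11 called by DESeq2 and 1 by limma-voom). For KI it also called 0 (881, or 5.68%, with 15 by DESeq2 and 0 by limma-voom). Fits of each genotype on its own libraries called 0 genes in WT and 1 in KI. The interaction of genotype and injection had 0 calls by edgeR, DESeq2 and limma-voom, with 976 genes (6.29%) at an unadjusted p under 0.05. The smallest interaction p among named genes was that of Ahr, the dioxin receptor, with 0.36 ± 0.07 in WT and −0.10 ± 0.07 in KI (unadjusted p = 0.000298, edgeR adjusted p = 0.718). Prokr2, a prokineticin receptor, had 0.56 ± 0.11 in WT and −0.04 ± 0.11 in KI.

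In fits of each genotype on its own libraries, 12 genes had an unadjusted p under 0.001 in WT, and 10 of them (83.3%) had the same sign in KI. In the other direction, 24 genes were chosen in KI and 16 of them (66.7%) had the same sign in WT. Over all 14898 genes in both fits the share was 45.5%. At an unadjusted p under 0.01 the shares were 72.2% of 126 genes and 48.6% of 243. Genes within a library are not independent, so these shares are descriptions. The difference of these shares from that of all genes was not tested.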

How the data were processed

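RNA sequencing counts of 16 libraries were used. The deposited values are raw counts per gene, whole numbers that were not normalised by the authors. The submitters' processing notes name build mm10, the aligners Bowtie2 2.3.5.1 and TopHat2 2.1.1, the counter HTSeq 0.6.1p1, and also SAMtools 1.5, FastQC and bcl2fastq 2.20. The strand mode and the annotation are not given in the sources used here, so reads of overlapping or antisense genes cannot be told apart. Per the labels' protocols, poly-A libraries from 150 ng of RNA had 15 PCR cycles and single reads of 50 nucleotides. Groups follow the titles.

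From 24982 entries, 15507 passed filterByExpr. The 28 entries without identifier held 0.192% of the counts, and 24891 of 24954 identifiers (99.7%) matched RefSeq GRCm38.p6. edgeR 4.0.16 (R 4.3.3) fitted a quasi-likelihood model, with TMM factors and a mean for each group, and the contrast was the mean of both CFA groups minus the mean of both vehicle groups. A call means an adjusted p (Benjamini-Hochberg) under 0.05. The common biological coefficient of variation was 11.8%. Fold changes are log2 ± SE, and list scores are mean log2 CPM with a prior count of 2. A count of 3 equals 0.132 CPM in the shallowest library. DESeq2 1.42.0 and limma 3.58.1 were alternatives. The fitting was tested on simulated data.

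The comparison, its gene lists and the rule for named genes were chosen with earlier results of these data known. The rule takes the 24 smallest p-values at 1 CPM or more, at most 5 genes per list and the 5 smallest p-values of each other contrast. Some results are not reported here. Pooled libraries are separate pairs of mice per the labels, and p-values measure the spread between such pairs.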

Additional observations from a re-analysis of the deposited data

Results flagged for a closer look

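In each group of 4 libraries, a library was picked out where its gap to the nearest other exceeded Dixon's 95% critical share of the group's range, which chance does in about 1 in 20 groups. Of 96 groups of the 24 named genes, 6 were picked out, and of 192 groups of list scores, 10.

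Among called genes, Ptpn9 was high in WT CFA 3 (142.1 CPM, next 128.3), and Sbno2 was low in KI vehicle 2 (48.5 CPM, next 52.3). 9430021M05Rik was high in KI vehicle 1 (22.6 CPM, next 20.1), and Adamts8 was low in KI CFA 4 (9.69 CPM, next 12.0). Of muscle genes, Myoz1 was high in WT vehicle 4 (2.01 CPM, next 0.42), and Myl1 was at 0.0288 CPM in WT CFA 4 and at 0 in the other libraries of its group.

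List scores picked out WT vehicle 4 most often. It was low for A-fibre genes (7.12), C-LTMR genes, which mark the low-threshold mechanoreceptors with C fibres (5.91), and voltage-gated channels (6.58). It was high for cytokines and chemokines (1.495), ribosomal proteins (7.42), iron handling (5.02) and neuropeptides and opioids (5.53). KI CFA 3 was high for the IL-6, STAT3 and acute-phase list (4.48) and for proliferation (1.71), and WT CFA 1 for skeletal muscle, at −1.82 in a group that spanned 0.02. WT vehicle 4 also had 29.3 CPM of Ntrk3, the lowest of the WT libraries. Without it 5 genes were called for the mean CFA effect, the 4 named ones among them.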

How the results depend on the processing

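Against 4 calls for the mean CFA effect, 7 were made at an adjusted p under 0.1, 57 by DESeq2 (28 higher, 29 lower), 7 by limma-voom, 2 with no filter on low counts and 2 in an additive model of genotype and injection. No gene was called with library totals alone, with the skeletal muscle score as a covariate, without KI vehicle 1 and 4, or, chosen after seeing the data, with the fibroblast score as a covariate or without the 5 libraries that stood apart (KI vehicle 1 and 4, WT vehicle 4, WT CFA 2 and KI CFA 3). With a replicate block 1 gene was called, Tfrc (edgeR adjusted p = 0.0177). Same-numbered libraries did not pair: over 8 pairs the correlation of their deviations ran from −0.264 to 0.217, 2 were over 0.1, and in 2 a library correlated best with its own number. Leaving out each library gave 0 to 39 calls over both genotypes, 0 to 2 in WT and 0 to 53 in KI. For the WT contrast with all libraries in the fit, DESeq2 gave 11 and limma-voom 1. For the KI contrast DESeq2 gave 15, and a fit of only the KI groups gave 1. The interaction had 0 calls in every setting run. Of 120 genes over 3479 values, 1 changed direction: Hfe2, at 0.11 with the muscle covariate. In the fit without the 5 libraries, list medians were 0.08 for interferon genes, −0.40 for fibroblast genes, −0.11 for retinoid genes, −1.80 for muscle and 0.71 for neutrophil genes. The cause of these shifts was not tested. Depth limits genes near 0.132 CPM, such as the muscle genes in WT CFA libraries.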
